A study of Homo sapiens with 12 samples.

Results

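The transcriptome of PANC-1 cells, an established line from a human pancreatic ductal adenocarcinoma, was compared between 4 h and 30 min of tumour necrosis factor α (TNF) in cells carrying a control siRNA. The members were chosen by words in the names of the deposited count files: 2 libraries named for the control siRNA (Scr1) at 4 h were set against 2 named for it at 30 min, 4 of the 12 libraries in the series. The sample titles disagree with the file names for 8 of the 12 libraries, in 4 of 6 groups. By title, the 2 libraries named 4 h are control siRNA (siCtrl1) with TNF for 30 min, and the 2 named 30 min are unstimulated cells with the other siRNA (siAS1). Every time and siRNA below is that of the file name. The siRNA of the file names, and not that of the titles, separated the libraries by the level of the targeted gene SIK3, as given below. For the times no such check was made.

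The series crossed 2 siRNAs, a control and one against the kinase SIK3, with 3 conditions: unstimulated, TNF for 30 min and TNF for 4 h, with 2 libraries in each of 6 groups. All groups were PANC-1 cells transfected with an siRNA for 72 h, and TNF was given at 100 ng/mL. The replicate letters B and C in the file names pair the libraries across groups, and the letter was used as a block in the fit. The libraries used for comparison carry the control siRNA with CLM in place of a time (taken as unstimulated by elimination) and the SIK3 siRNA at 30 min and 4 h. RNA was measured in bulk from 1 line, so fewer cells of a state and less RNA per cell cannot be told apart, and synthesis and decay of a transcript were not measured separately.

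TNF binds receptors on the cell surface and activates the NF-κB transcription factors and the MAP kinases. The first genes to respond need no new protein: many encode transcription factors or inhibitors of the same signal, and many of their mRNAs carry AU-rich elements in the 3′ untranslated region that mark them for rapid decay. Genes of a second wave, among them chemokines, adhesion molecules, survival factors and interferon-stimulated genes, build up over hours. Setting 4 h against 30 min separates early transcripts whose level has come down from late ones whose level has gone up.

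The 4 libraries held between 13535825 and 19003108 counts assigned to genes. SIK3 mRNA was between 34.3 and 68.7 CPM (counts scaled by library size) in the 6 libraries named for the control siRNA and between 16.3 and 24.0 CPM in the 6 named for the SIK3 siRNA, with no overlap. By title the 2 siRNAs overlapped, at 17.3 to 65.2 CPM for siCtrl1 and 16.3 to 68.7 CPM for siAS1, and SIK3 would be lower at 4 h than at 30 min with siCtrl1 (log2 change -1.24, adjusted p = 1.98e-09, edgeR). Within the 4 libraries SIK3 did not pass the test, with 42.5 and 68.7 CPM at 30 min and 34.4 and 65.2 CPM at 4 h (adjusted p = 0.199, edgeR quasi-likelihood test), although it did so when the 4 h library of replicate C was left out (adjusted p = 0.0276). The 8 epithelial marker genes were all measured, at a summed 6551 to 6896 CPM at 30 min and 5826 to 6349 CPM at 4 h, and 3 were called lower and 0 higher. The 3 were KRT8, KRT19 and SOX9, and their calls were lost without the replicate block (adjusted p = 0.634, 0.446 and 0.929, edgeR). Of 3 mesenchymal markers 1 was called higher and 0 lower. Of 5 fibroblast markers 3 passed the filter on low counts, with 0 called. Of 6 leukocyte markers 1 passed the filter on low counts, ITGAM, and it was called higher at 4 h (2.3 and 2.46 CPM, then 4.49 and 3.72 CPM, adjusted p = 0.00725, edgeR). Its call was lost without the 4 h or the 30 min library of replicate B (adjusted p = 0.146 and 0.0851). Of 4 endothelial markers 1 passed the filter, CDH5, also called higher (0.274 and 0.214 CPM, then 0.971 and 0.791 CPM, adjusted p = 0.0245), with adjusted p from 0.0664 to 0.274 without the 4 h library of replicate B or either 30 min library. Of 5 acinar or endocrine markers 0 passed the filter, with 4 of those 5 at 0 in all 4 libraries. Reads mapping to several places made up 17.6 and 30.9% of all reads at 30 min and 4.94 and 41.5% at 4 h in replicates B and C. Mitochondrial mRNA was 0.813 to 0.969% of gene counts in the libraries of replicate C and 0.127 to 0.269% in those of replicate B. Their part in the results was not tested beyond the replicate block.

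Between 30 min and 4 h, 2134 of 16695 genes tested (12.8%) were higher and 2560 (15.3%) were lower, together 28.1%, at an adjusted p under 0.05 (edgeR quasi-likelihood test, Benjamini-Hochberg). The larger changes were mostly upward. At least 2-fold higher were 741 genes (4.44%) against 354 at least 2-fold lower (2.12%), and at least 4-fold higher were 307 against 65. The libraries of the 2 times did not overlap for 7729 genes (46.3%). The median gene changed by -0.03 on the log2 scale. Scaling to library totals in place of TMM factors gave 1788 higher and 3405 lower, and without the replicate block 1031 and 821 passed. Without the 4 h or the 30 min library of replicate B, 1701 and 1706 were lower. In what follows, levels are TMM-scaled CPM, given in the order replicate B then C, SE is that of the log2 change, and a list's counts should be read against the 12.8% and 15.3% of all genes.

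**Figure D1:**
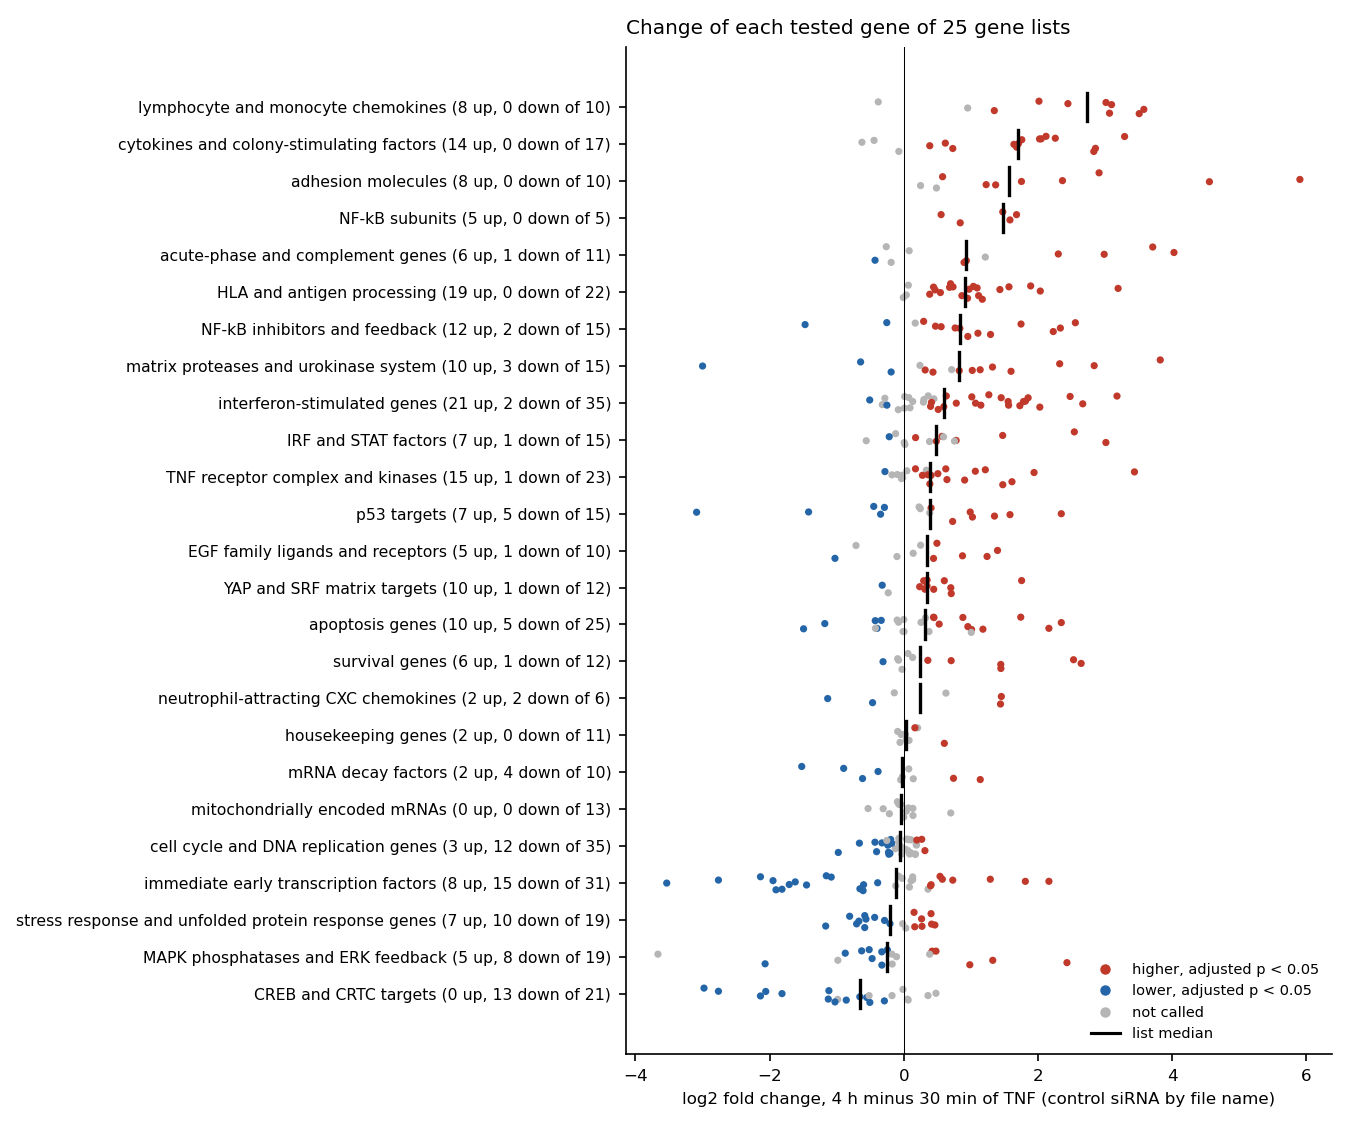
Log2 change from 30 min to 4 h of TNF (x axis) for the tested members of each of 25 gene lists (y axis, ordered by median), 1 point per gene, red for higher and blue for lower at an adjusted p under 0.05 and grey otherwise, with a bar at the list's median. The chemokine, cytokine and adhesion lists lie to the right with medians of 2.73, 1.71 and 1.56. The list labelled CREB and CRTC targets, which also holds the CRTC genes, lies to the left with a median of -0.66.

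Immediate early transcription factors were split. Of 31 members, 15 were lower at 4 h and 8 were higher, with a median of -0.12 on the log2 scale, and without the replicate block 11 and 5 passed. The member that fell most was EGR2, and FOS, EGR1 and NR4A1 fell as well. EGR3 and NR4A3, of the same families, did not pass. EGR2, a zinc-finger factor of the early growth response family, stood at 17.1 and 23.7 CPM at 30 min and at 1.76 and 1.66 CPM at 4 h. Both 30 min libraries were far above both 4 h libraries, and the unstimulated libraries, at 2.01 and 2.83 CPM, were near the 4 h level. The difference was 11.6-fold (log2 change -3.53, SE 0.19, adjusted p = 2.23e-12). FOS, a subunit of the AP-1 factor, had 63.8 and 88.8 CPM at 30 min and 11.2 and 11.0 CPM at 4 h. The 4 h libraries were also below the unstimulated ones (38.9 and 39 CPM), so that FOS ended under its starting level. FOS was 6.79-fold lower at 4 h (log2 change -2.76, SE 0.12, adjusted p = 1.28e-13).

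EGR1, a zinc-finger factor driven by serum response elements, had 106 and 268 CPM at 30 min and 27.2 and 70.7 CPM at 4 h. The replicates differ widely, but each fell by a similar factor and the groups did not overlap (log2 change -1.95, SE 0.10, adjusted p = 2.61e-12). Without the replicate block this call was lost (adjusted p = 0.226). IER2, an early-response nuclear protein, fell from 150.3 and 149 CPM to 56.4 and 53 CPM (log2 change -1.45, SE 0.08, adjusted p = 1.98e-12). Its 4 h level was close to the 51.9 and 48.1 CPM of unstimulated cells. NR4A1, an orphan nuclear receptor, had 10.4 CPM in both 30 min libraries and 1.70 and 3.16 CPM at 4 h (log2 change -2.14, SE 0.21, adjusted p = 3.91e-08). KLF10, a zinc-finger factor of the Krüppel-like family, fell from 307 and 328 CPM to 141 and 159 CPM (log2 change -1.08, SE 0.06, adjusted p = 1.29e-12).

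The promoter of EGR1 is shown because it holds 2 matches to the CArG box, the element of serum response factor (CC, then 6 bases of A or T, then GG), here in capitals. The stretch is chr5:138465329-138465448 on the plus strand of GRCh38.p14 from RefSeq, 120 bases that end 31 bases before the gene's start. A CArG match lay in 1.01% of the promoters of tested genes.
EGR1: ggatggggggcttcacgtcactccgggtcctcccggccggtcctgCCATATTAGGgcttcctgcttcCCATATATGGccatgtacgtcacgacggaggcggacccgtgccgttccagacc

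Genes that restrain the MAP kinases moved in both directions. Of 19 MAPK phosphatases and ERK feedback inhibitors, 8 were lower and 5 higher, with a median of -0.25 on the log2 scale, and without the replicate block 4 were lower and 4 higher. DUSP10, a phosphatase of the stress-activated kinases p38 and JNK, had 4.11 and 4.50 CPM at 30 min and 22.8 and 23.6 CPM at 4 h, a 5.39-fold rise with no overlap (SE 0.12, adjusted p = 9.75e-13). DUSP2, a nuclear phosphatase, went from 16.3 and 10.9 CPM to 46.5 and 22.6 CPM (2.51-fold, SE 0.13, adjusted p = 4.73e-08). DUSP1, a phosphatase known as an early stress gene, had 269 and 289 CPM at 30 min and 186 and 205 CPM at 4 h. DUSP1 was thus 1.43-fold lower (SE 0.05, adjusted p = 1.68e-07) but stayed above the 140.3 and 136 CPM of unstimulated cells. SPRY1, an inhibitor of receptor tyrosine kinase signalling, fell from 30.1 and 28.2 CPM to 7.28 and 6.48 CPM (4.19-fold, SE 0.13, adjusted p = 4.45e-11). Its unstimulated libraries had 31 and 34.6 CPM, so SPRY1 had no early peak.

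Among 10 tested mRNA decay factors, 4 were lower and 2 higher, and without the replicate block 0 were lower and 1 was higher. ZFP36 encodes tristetraprolin, which binds AU-rich elements and recruits deadenylases. ZFP36 had 1101 and 2724 CPM at 30 min against 372 and 979 CPM at 4 h, and 157 and 440.0 CPM before TNF. Within each replicate the 4 h level was lower, but the 4 h library of replicate C was close to the 30 min library of replicate B. ZFP36 was 2.87-fold lower (log2 change -1.52, SE 0.08, adjusted p = 3.13e-12), a call lost without the replicate block (adjusted p = 0.364). ZC3H12C, of the Regnase family, rose from 53 CPM in both libraries to 113 and 120.2 CPM (2.20-fold, SE 0.06, adjusted p = 2.71e-12). ZC3H12A, the endonuclease Regnase-1, had 17.8 and 22.2 CPM and then 32.6 and 33.5 CPM (log2 change 0.74, SE 0.10, adjusted p = 6.52e-06, and 0.0662 without the replicate block).

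Short stretches of 3′ untranslated region are shown for FOS and ZFP36, 2 early transcripts that fell, with the AU-rich nonamer TTATTTATT in capitals. They are 30 bases each on the plus strand of GRCh38, at chr14:75282060-75282089 and chr19:39409196-39409225. Both untranslated regions hold 5 ATTTA pentamers, whereas IER2, which fell as well, has 0.
FOS: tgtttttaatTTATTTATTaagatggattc
ZFP36: tatgacgactTTATTTATTctaatatgatt

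**Figure D2:**
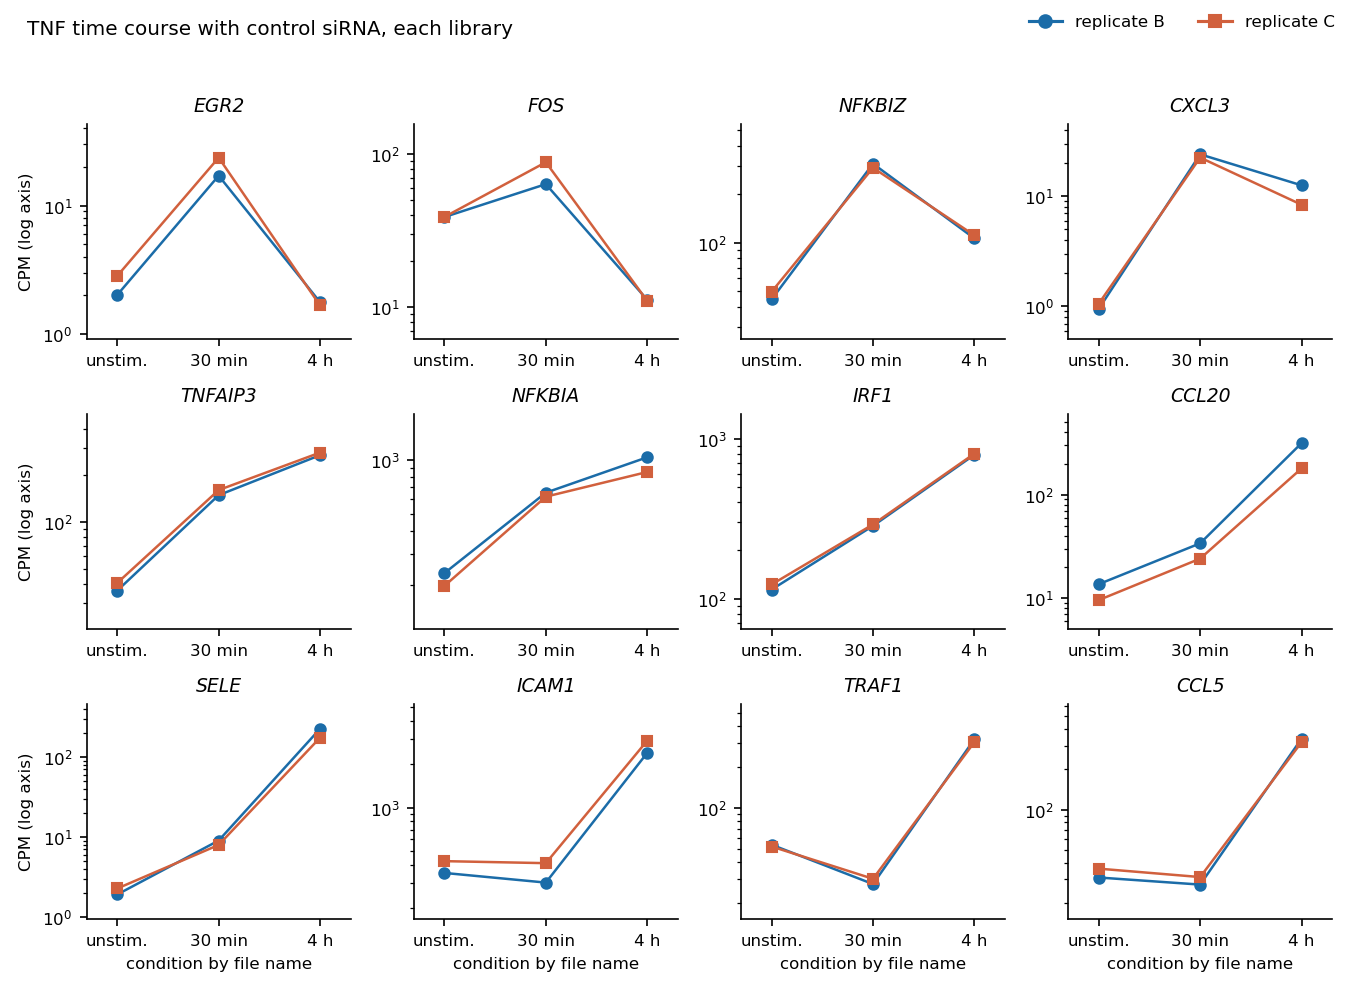
TMM-scaled CPM (log axis) in the 6 libraries named for the control siRNA, unstimulated, at 30 min and at 4 h of TNF, for genes of the early, feedback, chemokine and late groups; points are single libraries, and lines join the libraries of replicate B (circles) or C (squares). EGR2, FOS, NFKBIZ and CXCL3 are highest at 30 min, and the other 8 genes are highest at 4 h.

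The list of NF-κB inhibitors and feedback genes mostly rose. Of 15 tested members, 12 were higher at 4 h and 2 were lower, with a median of 0.83 on the log2 scale. The list also holds TNFAIP2 and TNFAIP8, so the count is not one of inhibitors alone. TNFAIP2 had 678 and 777 CPM at 30 min and 3732 and 3579 CPM at 4 h. The unstimulated libraries, at 748 and 725 CPM, lay with those at 30 min, so the 5.04-fold rise came after 30 min (SE 0.07, adjusted p = 9.43e-17). CYLD, a deubiquitinase that removes chains from the receptor complex, rose from 73.8 and 71.3 CPM to 371 and 310.2 CPM (4.68-fold, SE 0.07, adjusted p = 1.48e-16). TNIP1, a ubiquitin-binding partner of A20, rose from 114 and 148 CPM to 398 and 476 CPM (3.35-fold, SE 0.06, adjusted p = 1.63e-15). TNFAIP8, a regulator of cell death, rose from 11.5 and 7.93 CPM to 62.3 and 51.7 CPM (5.88-fold, SE 0.11, adjusted p = 5.79e-14).

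NFKBIZ, a nuclear member of the IκB family, went the other way. It had 309.7 and 292 CPM at 30 min and 106 and 111 CPM at 4 h, between the early peak and the 44.4 and 49.5 CPM of unstimulated cells (log2 change -1.47, SE 0.07, adjusted p = 6.53e-13). NFKBIA and TNFAIP3 were picked after their values were seen, as the classical inhibitors. NFKBIA, which encodes IκBα, had 234 and 198 CPM before TNF, 654 and 622 CPM at 30 min and 1029 and 853 CPM at 4 h. TNFAIP3, which encodes the deubiquitinase A20, had 36.0 and 40.4 CPM, then 149 and 161 CPM, then 271 and 281 CPM. Both rose at each step with no overlap between times. From 30 min to 4 h the log2 changes were 0.56 for NFKBIA (SE 0.06, adjusted p = 1.56e-07) and 0.83 for TNFAIP3 (SE 0.07, adjusted p = 8.65e-09).

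All 5 NF-κB subunit genes were higher at 4 h, with a median log2 change of 1.47, and 3 of them passed without the replicate block. NFKB1, the precursor of p50, rose from 158 and 149 CPM to 479 and 438 CPM (2.99-fold, SE 0.05, adjusted p = 1.37e-15). NFKB2, the precursor of p52, rose from 175 and 203 CPM to 534 and 509.9 CPM, and RELB, its partner in the non-canonical pathway, from 27.3 and 27.9 CPM to 95.7 and 81.1 CPM. For these 3 genes both 4 h libraries were far above both 30 min libraries, whose levels were at or under those of unstimulated cells. RELA (log2 change 0.56) and REL (log2 change 0.84) changed less, and their calls were lost without the replicate block (adjusted p = 0.410 and 0.267).

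Promoter stretches of NFKBIA, TNFAIP3 and NFKB1 are shown as those of the feedback loop. Capitals mark matches to the NF-κB motif, GGG, then any 3 bases, then TTCC, searched on both strands, so that a match on the other strand reads GGAA, any 3 bases, CCC. Each has 120 bases that end 31 bases before the start of the gene, from RefSeq on GRCh38.p14. The stretches are chr14:35404780-35404899 (minus strand), chr6:137867109-137867228 (plus strand) and chr4:102501209-102501328 (plus strand). The motif was in 7.63% of the promoters of tested genes.
NFKBIA: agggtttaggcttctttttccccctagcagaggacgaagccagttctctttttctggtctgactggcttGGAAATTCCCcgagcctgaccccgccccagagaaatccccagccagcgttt
TNFAIP3: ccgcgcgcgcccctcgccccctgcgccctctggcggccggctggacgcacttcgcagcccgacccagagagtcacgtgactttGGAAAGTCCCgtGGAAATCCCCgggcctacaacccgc
NFKB1: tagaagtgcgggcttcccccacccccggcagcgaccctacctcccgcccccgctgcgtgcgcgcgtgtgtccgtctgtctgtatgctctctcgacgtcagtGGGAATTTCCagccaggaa

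Of 23 genes of the TNF receptor complex and its kinases, 15 were higher and 1 was lower, with a median log2 change of 0.39, and without the replicate block 9 were higher and 0 lower. TRAF1, an adaptor of the TNF receptor family, had 27.5 and 30.0 CPM at 30 min, below the 53.5 and 51.9 CPM of unstimulated cells, and 319.5 and 304 CPM at 4 h. The rise was 10.8-fold (SE 0.07, adjusted p = 4.29e-19). BIRC3, the ubiquitin ligase cIAP2, rose from 1469 and 1335 CPM to 4246 and 3564 CPM (2.78-fold, SE 0.05, adjusted p = 1.63e-15). BIRC2, the related ligase cIAP1, rose from 309 and 248 CPM to 736 and 559 CPM (2.32-fold, SE 0.05, adjusted p = 7.12e-14). RIPK2, a kinase that also serves the NOD receptors, rose 3.06-fold, and IKBKE, an IκB-kinase relative, 3.84-fold. None of the 30 min libraries reached a 4 h library for these 5 genes.

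The neutrophil-attracting CXC chemokines did not move as 1 group: of 6, 2 were higher at 4 h, 2 were lower and 2 did not pass. CXCL8, interleukin 8, had 25.1 and 17.0 CPM before TNF, 87.3 and 70.4 CPM at 30 min and 262 and 171 CPM at 4 h. It rose at both steps without overlap, 2.71-fold from 30 min to 4 h (SE 0.08, adjusted p = 6.7e-12). CXCL3 had 0.952 and 1.06 CPM, then 24.0 and 22.4 CPM, then 12.6 and 8.38 CPM. The 30 min libraries were the highest, and CXCL3 was 2.20-fold lower at 4 h (log2 change -1.13, SE 0.13, adjusted p = 6.08e-07). CXCL2 had 54.3 and 62.0 CPM at 30 min and 41.0 and 42.6 CPM at 4 h (log2 change -0.47, SE 0.08, adjusted p = 0.000182, and 0.180 without the replicate block). CXCL1 had 107 and 124 CPM and then 97.8 and 111 CPM, overlapping levels that did not pass (log2 change -0.14, SE 0.07, adjusted p = 0.121), and passed as lower when scaled to library totals (adjusted p = 0.0240). Unlike EGR2, CXCL1, CXCL2 and CXCL3 were still well above unstimulated cells at 4 h, where CXCL1 had stood at 27.4 and 34.4 CPM and CXCL2 at 7.40 and 9.19 CPM. CXCL5 went from 0.932 and 0.964 CPM to 2.97 and 2.13 CPM (adjusted p = 0.00556), but its call was lost without the 4 h library of replicate B (adjusted p = 0.262), without the 30 min library of replicate C (adjusted p = 0.0567) and without the replicate block (adjusted p = 0.0666). CXCL1, CXCL2 and CXCL3 are near-identical copies, and reads mapping to several places were left out of the gene counts.

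The promoters of CXCL1, CXCL2 and CXCL3 are shown because the 3 genes share a stretch with the NF-κB motif on both strands (capitals, GGGAATTTCCC, where 2 overlapping matches lie). Whether their changes differ from each other was not tested. They lie at chr4:73869243-73869362 (plus strand), chr4:74099226-74099345 (minus strand) and chr4:74038720-74038839 (minus strand) of GRCh38.p14.
CXCL1: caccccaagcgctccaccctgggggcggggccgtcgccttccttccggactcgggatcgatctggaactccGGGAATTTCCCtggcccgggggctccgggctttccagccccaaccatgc
CXCL2: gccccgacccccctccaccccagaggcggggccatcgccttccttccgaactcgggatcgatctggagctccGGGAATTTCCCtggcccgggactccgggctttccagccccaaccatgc
CXCL3: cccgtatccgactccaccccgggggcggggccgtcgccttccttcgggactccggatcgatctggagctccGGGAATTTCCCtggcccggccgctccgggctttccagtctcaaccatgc

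The AU-rich sites of the same genes and of CXCL8 follow, 30 bases each from the 3′ untranslated region on GRCh38, with TTATTTATT and its overlapping repeats in capitals. They are chr4:73870674-73870703 (plus), chr4:74097589-74097618 (minus), chr4:74036772-74036801 (minus) and chr4:73742664-73742693 (plus). The whole untranslated regions hold 5 ATTTA pentamers in CXCL1, 10 in CXCL2, 7 in CXCL3 and 9 in CXCL8, so CXCL8, which rose, holds more than CXCL3, which fell.
CXCL1: agtcttctatTTATTTATTTATTcattagt
CXCL2: agtcttctatTTATTTATTTATTTATTtat
CXCL3: atgtcagttgTTATTTATTcaaattatctc
CXCL8: atgtaaagtaTTATTTATTtgaatctacaa

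Most chemokines for lymphocytes and monocytes were higher at 4 h than at 30 min. Of 10 tested of 12, 8 were higher, 0 lower and 2 did not pass, with a median log2 change of 2.73 (5 of the fewer that passed a stricter filter were higher). CCL5, a chemoattractant for T cells and monocytes, had 27.3 and 31.1 CPM at 30 min and 341 and 320.4 CPM at 4 h. The unstimulated libraries, at 30.9 and 36.0 CPM, were at the 30 min level, and the rise was 11.4-fold (SE 0.09, adjusted p = 1.31e-17). CCL20, the ligand of CCR6, had already risen by 30 min, from 13.7 and 9.61 CPM to 34.0 and 24.2 CPM, and reached 315 and 179.6 CPM at 4 h (8.37-fold from 30 min, SE 0.10, adjusted p = 2.98e-16). CX3CL1, a membrane-bound chemokine, went from 89.1 and 133 CPM to 549 and 641 CPM (5.45-fold, SE 0.08, adjusted p = 5.17e-16). CCL2, the main attractant of monocytes, went from 548 and 703 CPM to 1359 and 1840.2 CPM (2.55-fold, SE 0.05, adjusted p = 1.03e-14). CXCL16 rose from 1.26 and 2.68 CPM to 5.52 and 10.2 CPM, a call lost without the replicate block (adjusted p = 0.0861).

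Cytokines and colony-stimulating factors followed the same direction, with 14 of 17 tested of 22 higher, 0 lower and a median log2 change of 1.71. CSF1, the macrophage growth factor, had 213 and 346 CPM at 30 min and 979 and 1420.3 CPM at 4 h (4.34-fold, SE 0.05, adjusted p = 1.97e-17). EBI3, a subunit of interleukins 27 and 35, rose from 2.14 and 2.78 CPM to 24.9 and 23.4 CPM (9.78-fold, SE 0.15, adjusted p = 1.74e-13). Its 4 h libraries agreed closely and lay far above the 30 min and unstimulated ones. LTB, lymphotoxin β, rose 4.06-fold, IL32 3.27-fold and CD70, a ligand of the TNF superfamily, 3.12-fold, each without overlap.

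Of 10 tested adhesion molecules 8 were higher and 0 lower, with a median log2 change of 1.56. SELE, E-selectin, which captures rolling leukocytes, had 1.90 and 2.26 CPM before TNF, 9.0 and 7.93 CPM at 30 min and 225 and 174 CPM at 4 h. The steps did not overlap, and the rise from 30 min was 23.5-fold (SE 0.11, adjusted p = 4.54e-18). VCAM1, a ligand of leukocyte integrins, had 0.274 and 0.268 CPM at 30 min and 20.0 and 13.4 CPM at 4 h (59.8-fold, SE 0.33, adjusted p = 4.28e-12). The low 30 min values rest on few counts, near the 0.160 and 0.158 CPM that 3 counts give in those libraries before TMM scaling. ICAM1, the ligand of LFA-1, was abundant throughout and went from 301 and 411 CPM to 2397 and 2913 CPM (7.51-fold, SE 0.06, adjusted p = 1.94e-19). SDC4, the proteoglycan syndecan 4, rose 3.37-fold, from 535 and 546 CPM to 1845 and 1794 CPM. SELE and VCAM1 are known from endothelium, and the endothelial marker CDH5 was called higher as well, as given above, with the 4 endothelial markers at a summed 0.321 to 0.658 CPM at 30 min and 0.870 to 1.09 CPM at 4 h; their part in this result was not tested.

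Promoter stretches of SELE and CCL20, which were higher at 30 min than before TNF and higher again at 4 h, hold 1 match each to the NF-κB motif (capitals). They lie at chr1:169734110-169734229 (minus strand) and chr2:227813692-227813811 (plus strand) of GRCh38.p14.
SELE: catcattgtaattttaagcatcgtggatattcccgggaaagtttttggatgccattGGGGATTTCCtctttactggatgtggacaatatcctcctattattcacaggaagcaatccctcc
CCL20: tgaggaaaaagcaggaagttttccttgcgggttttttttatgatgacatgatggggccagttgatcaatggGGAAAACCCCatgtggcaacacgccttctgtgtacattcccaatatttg

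The larger part of the interferon-stimulated genes was higher at 4 h. Of 15 tested IRF and STAT factors, 7 were higher and 1 lower (median log2 change 0.48). IRF1, an activator of interferon-stimulated genes, had 114 and 123 CPM before TNF, 285 and 291 CPM at 30 min and 792 and 805 CPM at 4 h. It climbed at each step with little spread, 2.78-fold from 30 min (SE 0.05, adjusted p = 2.64e-15). STAT5A rose from 34.6 and 34.8 CPM to 227 and 179 CPM (5.82-fold, SE 0.08, adjusted p = 1.48e-16). Of 35 tested interferon-stimulated genes 21 were higher and 2 lower (median 0.60), and without the replicate block 19 were higher and 0 lower. GBP1, a guanylate-binding protein, had 8.94 and 10.3 CPM at 30 min, near the 11.1 CPM of both unstimulated libraries, and 61.5 and 60.9 CPM at 4 h (6.35-fold, SE 0.09, adjusted p = 1.37e-15). IFIH1, the RNA sensor MDA5, rose 3.44-fold, GBP4 5.57-fold, SAMD9L 4.07-fold and APOL2 3.31-fold.

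Of 22 tested HLA and antigen-processing genes 19 were higher and 0 lower, with a median log2 change of 0.91. HLA-F had 3.24 and 3.64 CPM at 30 min and 36.9 and 26.4 CPM at 4 h (9.14-fold, SE 0.14, adjusted p = 1.26e-13). HLA-B, a classical class I gene, rose from 43.9 and 45.8 CPM to 185 and 149 CPM (3.71-fold, SE 0.08, adjusted p = 2.28e-14). The peptide transporter subunit TAP1 rose 2.96-fold and HLA-E 1.96-fold. No 30 min library reached a 4 h library in any of these 4. HLA genes are alike in sequence and polymorphic, so reads could be placed on the wrong one. Reads mapping to several places were left out of the gene counts.

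The promoter stretch of GBP1 is shown for the interferon motif (GAAA, any 2 bases, GAAA). The match is on the strand opposite to the one printed, so the capitals read TTTC, any 2 bases, TTTC. The motif lay in 2.89% of the promoters of tested genes. The stretch printed is chr1:89065239-89065358 (minus strand) of GRCh38.p14.
GBP1: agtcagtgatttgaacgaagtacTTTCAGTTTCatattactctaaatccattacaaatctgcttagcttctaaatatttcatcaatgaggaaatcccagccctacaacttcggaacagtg

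Both survival and death genes were among those that rose. Of 12 survival genes 6 were higher and 1 lower (median log2 change 0.24). SOD2, the mitochondrial superoxide dismutase, went from 326 and 294 CPM to 2166 and 1719 CPM (6.24-fold, SE 0.07, adjusted p = 1.95e-17). BCL2A1, an anti-apoptotic BCL2 relative, went from 33.1 and 28.5 CPM to 199.7 and 157 CPM (5.77-fold, SE 0.07, adjusted p = 2.07e-17). BCL2L1 and CFLAR, which encode BCL-XL and the caspase 8 inhibitor c-FLIP, both rose 2.72-fold. Of 25 apoptosis genes 10 were higher and 5 lower (median 0.32), with 7 and 2 without the replicate block, and 9 and 3 without either library of replicate B. The death receptor FAS rose from 32.3 and 31 CPM to 153 and 130.4 CPM (4.47-fold, SE 0.07, adjusted p = 1.37e-15). BBC3 and BCL2L11, BH3-only proteins that trigger apoptosis, rose 5.09-fold and 3.35-fold. No 30 min library reached a 4 h library for any of these 7 genes.

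The 15 p53 targets held 7 higher and 5 lower genes, with 6 and 3 without the replicate block. GDF15, a stress-induced cytokine, was the one that fell most, from 59.8 and 45.6 CPM to 7.28 and 5.06 CPM (8.5-fold, log2 change -3.09, SE 0.12, adjusted p = 9.95e-15). Unstimulated cells had 48.1 and 30.6 CPM, so GDF15 at 4 h was below its level before TNF. CDKN1A, the cell cycle inhibitor p21, went the opposite way, from 63.6 and 69.7 CPM to 164 and 176 CPM (2.55-fold, SE 0.07, adjusted p = 6.87e-13). SFN, the 14-3-3σ protein, rose 2.99-fold and GADD45A 2.03-fold.

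Secreted and matrix genes rose in part. Of 15 tested matrix proteases and urokinase system genes 10 were higher and 3 lower (median log2 change 0.83), with 6 and 2 without the 30 min library of replicate B. PLAU, urokinase, went from 537 and 514 CPM to 1155 and 982 CPM (2.03-fold, SE 0.05, adjusted p = 3.61e-13). PLAT, the tissue-type activator, rose from 0.603 and 0.910 CPM to 12 and 9.65 CPM (14.1-fold, SE 0.25, adjusted p = 7.17e-11). Both plasminogen activators thus rose, while the protease ADAMTS1 fell from 16.3 and 13.9 CPM to 2.12 and 1.58 CPM (8.0-fold, SE 0.17, adjusted p = 4.93e-12). Of 11 tested acute-phase and complement genes 6 were higher and 1 lower. PTX3, a long pentraxin, rose from 86.1 and 81.2 CPM to 467 and 364 CPM (4.93-fold, SE 0.07, adjusted p = 1.44e-16), complement C3 rose 7.92-fold, and SAA1 and SAA2, near-identical serum amyloid genes, 13.1-fold and 16.3-fold.

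Of 10 tested EGF family ligands and receptors 5 were higher and 1 lower, with 3 and 1 without the replicate block. HBEGF rose from 24.5 and 24.1 CPM to 71.9 and 56.1 CPM (2.63-fold, SE 0.09, adjusted p = 2.33e-11). AREG, another ligand of the EGF receptor, fell from 9.87 and 9.75 CPM to 5.16 and 4.51 CPM (2.04-fold, SE 0.14, adjusted p = 4.55e-06). Ligands of the same receptor therefore changed in opposite directions.

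Salt-inducible kinases such as SIK3 phosphorylate the CRTC proteins, the coactivators of CREB. The list of CREB targets also holds the coactivator genes CRTC1, CRTC2 and CRTC3. It was the only list of 25 with members called lower and none called higher. Of 21 tested, 13 were lower and 0 higher, with a median log2 change of -0.66. CRTC1 and CRTC3 were among the 13, so the count is not one of targets alone. FOS, NR4A1, NR4A2 and NR4A3 are members of both this list and that of immediate early factors, and AREG is also in the EGF family list. BDNF, a neurotrophin, had 4.99 and 3.70 CPM at 30 min and 0.486 and 0.632 CPM at 4 h (7.88-fold lower, SE 0.30, adjusted p = 8.92e-08). PER1, a circadian repressor, fell from 7.68 and 14.5 CPM to 3.28 and 7.04 CPM (2.17-fold, SE 0.15, adjusted p = 2.91e-06, and 0.238 without the replicate block). GEM, a small GTP-binding protein, fell from 63.0 and 54.2 CPM to 33.8 and 30.8 CPM (1.81-fold, SE 0.08, adjusted p = 1.47e-08). SIK1, a salt-inducible kinase gene that is itself a CREB target, fell from 3.84 and 5.73 CPM to 1.94 and 2.45 CPM (2.18-fold, SE 0.20, adjusted p = 0.000145); it has a near-identical copy, SIK1B. SIK2 did not pass, with 38.8 and 45.3 CPM and then 42.2 and 48.5 CPM (adjusted p = 0.294).

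Smaller shifts were seen in growth and stress genes. Of 35 cell cycle and DNA replication genes 12 were lower, 3 higher and 20 did not pass, with a median of -0.06 on the log2 scale. These counts were unsteady: without the replicate block 4 were lower and 0 higher, and without single libraries 6 to 10 were lower and 1 was higher. KIF20A, a kinesin of cytokinesis, fell from 43.4 and 42.8 CPM to 20.4 and 23.6 CPM (1.97-fold, SE 0.09, adjusted p = 1.78e-08). CENPE, a kinetochore motor, had 153 and 154 CPM and then 108 and 120.2 CPM (1.35-fold lower, SE 0.06, adjusted p = 1.49e-05). Of 19 stress and unfolded protein response genes 10 were lower and 7 higher, with 6 and 1 without the replicate block, and 8 and 2 without either library of replicate B. TXNIP, a thioredoxin inhibitor that responds to glucose, fell from 33.5 and 36.1 CPM to 15.6 and 15.5 CPM (2.24-fold, SE 0.10, adjusted p = 5.83e-09). DDIT3, the factor CHOP, fell from 47.8 and 38.6 CPM to 26.3 and 23.1 CPM (1.75-fold, SE 0.08, adjusted p = 6.82e-08).

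Of 12 YAP and SRF matrix targets 10 were higher and 1 lower (median log2 change 0.35), with 4 and 0 without the replicate block. RHOB, a small GTPase, was among the early genes that kept rising, with 59.0 and 53.6 CPM before TNF, 151 and 141 CPM at 30 min and 539 and 449.6 CPM at 4 h (3.38-fold from 30 min, SE 0.06, adjusted p = 1.51e-15). TPM1, a tropomyosin, rose from 553 and 514 CPM to 921 and 821 CPM (1.63-fold, SE 0.04, adjusted p = 2.09e-11). Of 13 mitochondrially encoded mRNAs 0 passed in either direction. Their summed level followed the replicate letter, from 2082 CPM in the 4 h library of replicate B to 10078 CPM in that of replicate C, and without the 30 min library of replicate C 6 of them were lower. Of 11 housekeeping genes 2 were higher and 0 lower, and 0 were higher without the replicate block. ACTB, cytoplasmic actin, was 1.52-fold higher (adjusted p = 1.27e-08, and 0.159 without the replicate block).

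Among single genes, the 12 with the largest rise were ranked by fitted log2 change. The 7 ranked first had 0 counts in both 30 min libraries. For these a fold is a lower bound, set against 3 counts over the 2 libraries. SPIB, an ETS factor of B cells, reached 2.31 and 2.93 CPM at 4 h and was at least 32.2-fold higher. DAPP1, a signalling adaptor, was at least 19.1-fold higher, PIK3R5, a regulatory subunit of phosphoinositide 3-kinase γ, at least 18.3-fold, and the kinase HUNK at least 17.7-fold. The ion transport genes KCNN3 and SLC8A3 were at least 17.2-fold and 17.1-fold higher, and the cadherin CDH22 at least 14.8-fold. None of the 7 exceeded 2.93 CPM at 4 h, and the bound is set by so few counts that their order carries little. Their bounds are below the folds of VCAM1, LRRC32 and RASSF5 (59.8, 53.7 and 52.9-fold). Outside the 2 libraries at 4 h with control siRNA the 7 had at most 0.465 CPM. They therefore passed the filter on low counts through that group alone.

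The other 5 were VCAM1, RASSF5, LRRC32, IGFL1 and SIX2. RASSF5, a Ras and Rap effector involved in leukocyte adhesion, had 2.08 and 2.46 CPM at 30 min and 123 and 117 CPM at 4 h (52.9-fold, SE 0.17, adjusted p = 1.44e-16). The 2 libraries of each time were close to each other. LRRC32, the surface protein GARP that tethers latent TGF-β, went from 0.384 and 0.482 CPM to 23.7 and 23.6 CPM (53.7-fold, SE 0.21, adjusted p = 6.74e-15). IGFL1 and SIX2 rose from 1 or 2 counts per library, at most 0.110 CPM, to 2.49 and 3.32 CPM and to 3.58 and 4.35 CPM.

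The 12 with the largest fall were VAV3, EGR2, ZNF503, PDK4, OSR1, GDF15, ADAMTS1, BDNF, PRICKLE1, TMEM100, MBLAC2 and FOS. PRICKLE1, a planar cell polarity protein, fell from 28.5 and 37.2 CPM to 3.82 and 5.22 CPM (7.29-fold, SE 0.11, adjusted p = 1.51e-14). PDK4, the kinase that restrains pyruvate dehydrogenase, fell from 10.6 and 8.41 CPM to 0.789 and 1.19 CPM (9.81-fold, SE 0.24, adjusted p = 5.85e-10). MBLAC2 fell from 19.6 and 15.3 CPM to 2.61 and 2.53 CPM (6.84-fold, SE 0.16, adjusted p = 6.53e-12). For PRICKLE1, PDK4 and MBLAC2 the unstimulated libraries were near the 30 min level (25.7 and 31, 7.24 and 8.69, 16.2 and 12.2 CPM), so these were not transcripts of an early peak. VAV3, ZNF503, OSR1 and TMEM100 had at most 2.89 CPM at 30 min, and the call of TMEM100 was lost without the 4 h library of replicate B (adjusted p = 0.0527).

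A separate definition of early and late genes came from the libraries named for the SIK3 siRNA. They are on neither side of the comparison of 4 h with 30 min described here, but they share its fit, and so the replicate block and the estimate of the spread. Genes higher there at 30 min than unstimulated were called early (279 genes), and genes higher at 4 h but not at 30 min were called late (1970 genes). With control siRNA, 173 of the 279 early genes (62.0%) were lower at 4 h than at 30 min and 40 (14.3%) were higher, with a median log2 change of -0.37. Of the 1970 late genes 900 (45.7%) were higher and 118 (5.99%) lower, with a median of 0.29. The corresponding shares of all genes were 12.8% higher and 15.3% lower. The share of early genes that fell, 62.0%, was thus above the 15.3% of all genes. The share that rose, 14.3%, was near the 12.8% of all genes.

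Among the early genes that fell, outside the lists above for the most part, were TOB1, an antiproliferative deadenylase adaptor (21.2 and 23.3 CPM to 4.86 and 6.48 CPM, log2 change -1.98), and PCDH18, a protocadherin (38.9 and 35.4 CPM to 6.31 and 7.59 CPM, log2 change -2.43). HES1, a Notch-responsive repressor, fell from 73.9 and 64.0 CPM to 20.8 and 21.4 CPM (log2 change -1.71). Among those that rose were EFNA1, the ligand ephrin A1 (38.6 and 34.1 CPM to 134 and 110.0 CPM, log2 change 1.74), and TIFA, an adaptor upstream of NF-κB (23.4 and 21.6 CPM to 59.6 and 64.0 CPM, log2 change 1.46). In each of these 5 genes, picked after their values were seen, the libraries of the 2 times did not overlap.

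Sequence features of the called genes were tabulated as a description. The AU-rich pentamer ATTTA occurred 3 or more times in the 3′ untranslated region of 67.2% of genes lower at 4 h, 48.0% of genes higher at 4 h and 48.2% of all tested protein-coding genes. The lower genes also had longer untranslated regions, with a median of 2300 bases against 1700 for the higher ones, and per kilobase the pentamer count was 2.51 against 1.94 (2.09 over all). The early genes from the other siRNA had 3 or more pentamers in 75.6% and 2.97 per kilobase. The nonamer TTATTTATT was present in 15.4% of the lower genes, 18.1% of those at least 2-fold lower, 9.58% of the higher ones and 9.43% of all. The median span of the gene on the chromosome was 47.9 kb for the lower genes and 32.8 kb for the higher ones, but 25.9 kb for those at least 2-fold lower.

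In promoters from 250 bases before to 50 after the start, the NF-κB motif (GGG, any 3 bases, TTCC) was present in 11.7% of the higher genes, 13.9% of those at least 2-fold higher, 6.45% of the lower genes and 7.63% of the 11346 tested genes with a promoter sequence. The interferon motif was present in 6.00, 8.79, 1.77 and 2.89% of the same groups in turn. The AP-1 motif TGANTCA was present in 6.18, 7.57, 3.69 and 4.57%. The CRE motif TGACGTCA was present in 3.09, 1.43, 3.05 and 3.31%, and in 6.09% of the early genes. A match is a string of letters, binding was not measured, and promoter base composition was not matched between the groups.

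**Figure D3:**
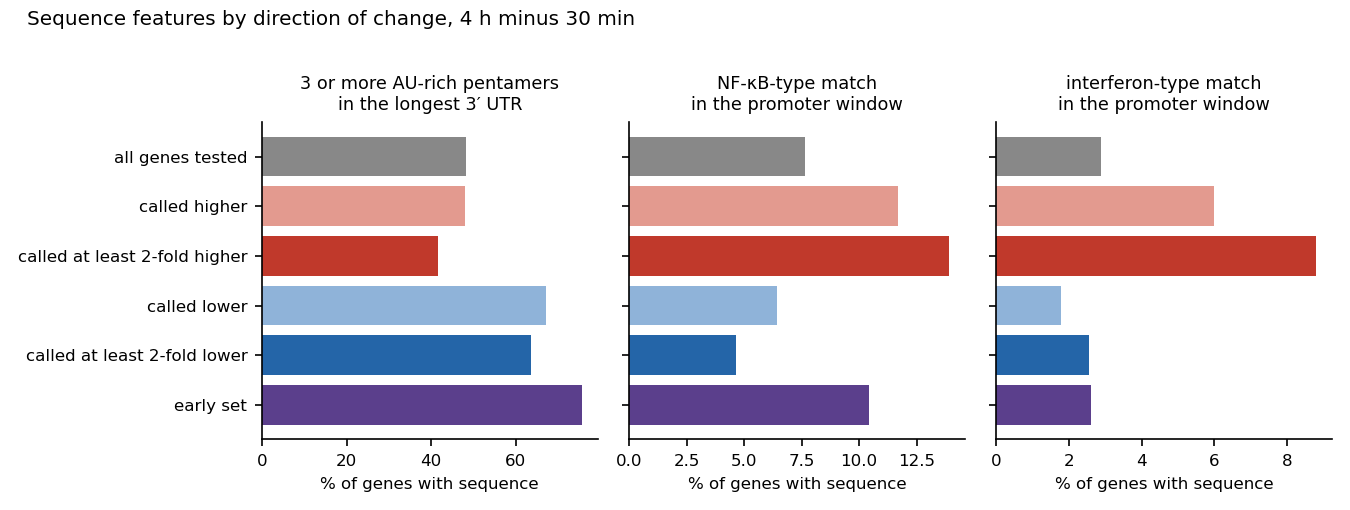
Shares of genes with 3 or more AU-rich ATTTA pentamers in the longest annotated 3′ untranslated region (left), and with a match to the NF-κB motif (middle) or the interferon motif (right) in the promoter (x axes, percent of genes with a sequence). Bars stand for all tested genes, genes called higher, at least 2-fold higher, lower and at least 2-fold lower at 4 h, and the early genes of the other siRNA: pentamer-rich genes make up 67.2% of the lower genes against 48.2% of all, and the NF-κB motif is in 13.9% of the genes at least 2-fold higher against 7.63% of all.

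The same step from 30 min to 4 h was compared between the siRNAs by an interaction term. The change differed for 2280 of 16695 genes (13.7%), 956 with a more positive change under control siRNA (5.73%) and 1324 with a more negative one (7.93%), and without the replicate block for 236. Without the 4 h or the 30 min library of replicate B with control siRNA it differed for 1386 and 1447, and without the 30 min library of replicate B with the SIK3 siRNA for 1487. Reads outside annotated genes were 16.5 and 17.1% of all reads in the 2 libraries named for the SIK3 siRNA at 4 h and 8.35 to 10.5% in the other 10, and their part in this result was not tested. Among the lists, 21 interferon-stimulated genes and 17 HLA genes had a more positive change with control siRNA, against 1 and 0 with a more negative one. Of the cell cycle genes 24 of 35 had a more negative change with control siRNA and 0 a more positive one. With control siRNA itself this list had a median log2 change of -0.06, and 20 of the 35 did not pass. Of the immediate early factors 15 had a more negative and 6 a more positive change. ALCAM, an adhesion molecule, went from 41.1 and 33.7 CPM to 211 and 174 CPM with control siRNA, and from 175 and 167 CPM to 189 and 193 CPM with the SIK3 siRNA. The 30 min level itself was higher with the SIK3 siRNA, and the log2 changes differed by 2.20 (adjusted p = 6.73e-12, edgeR). FOS fell by 2.76 on the log2 scale with control siRNA and by 1.72 with the SIK3 siRNA, where it went from 57.0 and 77.6 CPM to 20.6 and 20.2 CPM (adjusted p of the difference = 0.000195). SELE, at 225 and 174 CPM at 4 h with control siRNA, had 0.560 and 1.18 CPM at 30 min and 6.77 and 5.13 CPM at 4 h with the SIK3 siRNA (adjusted p of the difference = 0.000864). NFKBIZ, which fell with control siRNA, had 119 and 142 CPM at 30 min and 112 and 123 CPM at 4 h with the SIK3 siRNA (adjusted p of the difference = 1.45e-08). EGR2 fell by 3.53 and 3.67 on the log2 scale with the control and the SIK3 siRNA, a difference that did not pass (adjusted p = 0.825).

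**Figure D4:**
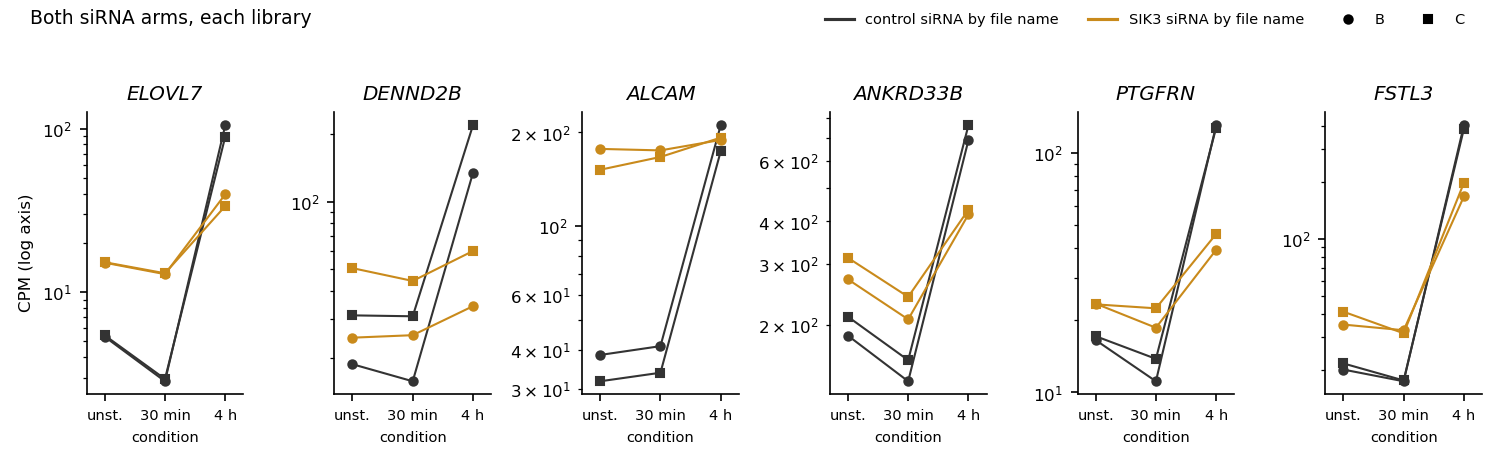
TMM-scaled CPM (log axis) of 6 genes in the unstimulated, 30 min and 4 h libraries named for the control siRNA (dark) and the SIK3 siRNA (ochre), with circles for replicate B and squares for C. These are the genes with the smallest p for the difference between siRNAs, and in each replicate every one is lower at 30 min with control siRNA and rises more steeply, ALCAM from 41.1 and 33.7 CPM to 211 and 174 CPM.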

How the data were processed

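RNA was extracted with a column kit and DNase I and made into ScriptSeq libraries, per the labels' protocols. The authors deposited 1 file of raw counts per library, aligned to GRCh38 with STAR 2.05b per the submitters' processing notes, which also name edgeR. The strand setting and annotation release are not given in the sources used here, so reads of a gene and its antisense partner cannot be told apart. The first 4 rows of each file are read summaries and were left out, and the counts are those of the second column. Symbols came from GENCODE 29, with 3742 of 60669 identifiers unmatched. Promoters came from RefSeq (GRCh38.p14) and 3′ untranslated regions from GENCODE 29.

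Groups followed the file names, because the titles conflict with them. Counts were fitted with edgeR 4.0.16 in R 4.3.3 (TMM scaling, filterByExpr with a minimum count of 10, 16695 genes) over all 12 libraries, with 6 groups and the replicate letter as a block, which left 5 residual degrees of freedom. Quasi-likelihood tests were adjusted by Benjamini-Hochberg at 0.05, and the method was tested on simulated data. The simulated replicate effect had the form of the block, so that test says nothing of the spread in the real libraries. The design text speaks of biological replicates. With 2 libraries per group, p-values rest on few libraries and on the spread left after the replicate block. The letters were taken to pair the libraries because deviations from the group means correlated in all 15 pairs of groups (0.469 to 0.661, and 0.528 for this comparison). A count of 0 allows up to 3 counts, or 0.158 to 0.222 CPM before TMM scaling in these libraries, for counting error only.

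Named genes were the 3 salt-inducible kinases, the 12 higher and 12 lower protein-coding genes with the largest change among those called, without overlap and with a mean of at least 1 CPM, up to 5 genes of smallest p per list, and the 6 of smallest p for the difference between siRNAs. The members and lists were chosen with earlier results of these data known. Alternatives were no block, DESeq2 1.42.0 size factors and Wald test, library totals, limma 3.58.1 voom, other filters and subsets, a threshold of 0.01, conditions by title, and leaving out each library. Results on a few genes are not reported here.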

Additional observations from a re-analysis of the deposited data

Results flagged for a closer look

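The change from 30 min to 4 h differed between the control and the SIK3 siRNA, both by file name, by a test of the difference itself for 2280 genes (edgeR quasi-likelihood test of the interaction, Benjamini-Hochberg). The 6 genes of smallest p all changed more positively with control siRNA, in both replicates. The log2 difference was 3.57 for ELOVL7, a fatty acid elongase, which went from 2.85 and 2.95 CPM to 105 and 89.2 CPM with control siRNA and from 12.9 and 13.0 CPM to 39.6 and 33.6 CPM with the SIK3 siRNA. It was 2.52 for DENND2B, 2.20 for the adhesion molecule ALCAM and 1.37 for ANKRD33B. It was 2.32 for PTGFRN, an immunoglobulin superfamily protein, which reached 131 and 128 CPM at 4 h with control siRNA and 39.4 and 45.9 CPM with the SIK3 siRNA. It was 1.97 for FSTL3, an activin-binding protein, which rose from 17.5 and 17.7 CPM to 402 and 385 CPM with control siRNA and from 32.7 and 31.5 CPM to 168 and 199 CPM with the SIK3 siRNA. The 2 libraries named for the SIK3 siRNA at 4 h had 16.5 and 17.1% of reads outside annotated genes, against 8.35 to 10.5% in the other 10, and the part of this in the difference was not tested.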

How the results depend on the processing

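Of 301 called genes of the lists or the naming rule, 189 stayed called under every alternative but conditions by title, which was not run for them, 101 lost the call without the replicate block and 58 without at least 1 library. Without the replicate block 1852 genes passed between 30 min and 4 h (1031 higher, 821 lower), and 236 for the difference between siRNAs (126 and 110). The early set then held 23 genes (14 lower, 5 higher) and the late set 592 (277 higher, 15 lower). With conditions by title 10213 genes passed (5038 higher, 5175 lower), and 9479 for the difference (4697 and 4782). Leaving out 1 library at a time gave 3194 to 3732 genes (1493 to 1660 higher, 1701 to 2072 lower), and for the difference 1386 to 2289 (525 to 1007 positive, 855 to 1282 negative). The lowest values came without a library of replicate B, and 599 positive differences were left without the 30 min library of replicate C with the SIK3 siRNA. An adjusted p under 0.01 gave 1259 genes for the difference (512 and 747), and, in the choice of the early set, 139 genes (94 lower, 26 higher). The DESeq2 Wald test gave 820 negative differences. The median of the housekeeping list turned from 0.04 to -0.022 with library totals. The cause of these shifts was not tested. All other counts over the whole table or the early and late sets stayed within 1.5 times their value. Depth limits the genes near 0 counts at 30 min, whose folds are bounds.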
